A study of Mus musculus with 4 samples.

Results

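The 48 genes described here encode the proteins of elastic fibres, the enzymes that crosslink and mature matrix proteins, and the matricellular glycoproteins. They were chosen by gene name among the non-control probes of 4 single-colour Agilent mouse arrays, which carry 71 probes for them. All 48 names are on the array. Of these genes 47 had a value on every array, out of 24595 genes tested, and 43 were well above background on all 4 arrays.

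The arrays compared islet-like clusters (labelled ILC, n = 2) with islets of Langerhans (n = 2) from male Swiss albino mice aged 10 to 12 weeks, with pancreata of 2 to 4 mice pooled per digest. The clusters were grown from passaged pancreatic cells that resemble mesenchymal stromal cells and that stayed attached to the flask 48 h after a collagenase digest was plated. They formed over 10 days in serum-free medium with albumin and insulin, transferrin and selenium in low-adherence dishes, with 0.3 mM taurine from day 3 and 3 mM taurine, 100 mM nicotinamide and GLP-1 from day 7. The islets were flushed from the same kind of flask, and the sample descriptions, which speak of fresh isolation, do not match the titles, which give 48 h of culture. The labels do not say whether replicates came from separate pools, so p-values measure only the spread between arrays, which may be technical. There is no array of the stromal cells before induction.

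Elastic fibres have a core of crosslinked elastin deposited on a scaffold of fibrillin microfibrils, with fibulins and EMILINs at the interface and latent TGF-beta binding proteins anchored along the microfibrils. Lysyl oxidases crosslink elastin and collagen outside the cell, whereas lysyl and prolyl hydroxylases modify collagen chains inside it. Matricellular proteins such as thrombospondins, tenascins, SPARC and the CCN family bind cells, growth factors and matrix without being main structural components. In the pancreas fibroblasts and stellate cells are the known main producers of such interstitial matrix.

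The largest part of these genes had more RNA in clusters than in islets. In the limma fit across all genes (adjusted p under 0.05), 39 of the 47 were higher in clusters, 4 were lower (Sparcl1, Efemp1, Tgm2 and Smoc1) and 4 did not pass (Eln, Fbn2, Pcolce2 and Tnc). Over all genes tested 57.9% passed, with 27.2% higher and 30.7% lower. The median log2 fold change, clusters minus islets, was 2.77 for the 47 genes (2.69 with Thbs4, Comp and Nov at the bounds given below) and -0.15 for all genes. Of the 47 genes 20 (42.6%) were at least 16-fold higher, against 3.22% of all genes tested. With Thbs4, Comp and Nov at their bounds, a further 7 were at least 4-fold higher and 12 less than that. Thbs4, Comp, Nov and Wisp2 entered the fit only through the cluster arrays, a filter that favours a higher reading there. Among the 43 genes that every array detected well above background, 35 were higher, 4 lower and 4 did not pass. A refit limited to probes well above background on all 4 arrays called 12511 of 20848 genes, 46.9% of these calls being higher. In that refit 35 of the 43 genes were again higher and 4 lower. The values of the 2 groups did not overlap for 45 of the 47 genes, against 83.0% of all genes, the exceptions being Fbn2 and Pcolce2. With normexp background correction (offset 50), whose added constant narrows the folds of dim genes, 16 of the 47 fold changes moved by over 1.5 times, each towards 0, and 15 of the 47 genes, against 1.39% of all genes, were at least 16-fold higher. The log2 fold changes were then 4.65 for Fbn1, 3.76 for Mfap2, 3.30 for Emilin1, 4.01 for Fbln1, 4.27 for Ltbp1, 3.62 for Lox, 2.48 for Loxl3, 0.99 for Loxl4, 5.12 for Matn2, 4.17 for Thbs2, 4.71 for Thbs4, 2.13 for Wisp2 and -5.83 for Sparcl1. These 13 still passed, whereas Comp and Nov lost their calls and Tnc (0.65) did not pass. In bulk RNA fewer cells of a type and less RNA per cell cannot be told apart.

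**Figure D1:**
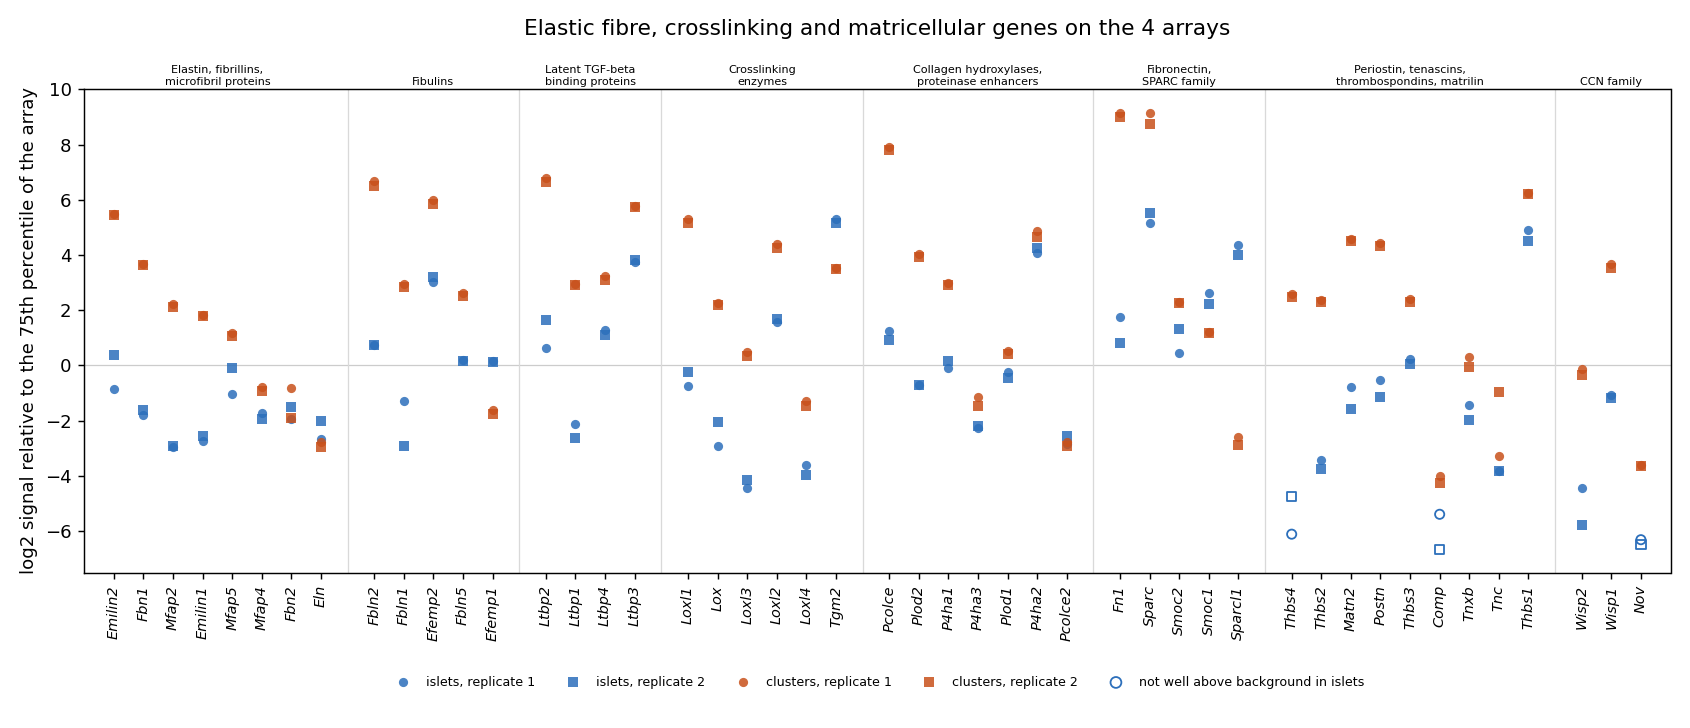
Level of each of the 47 genes on each array (log2 signal relative to the 75th percentile of the array), ordered by role and, within a role, by fold change. Orange marks are cluster arrays and blue marks islet arrays, circles are replicate 1 and squares replicate 2, and open marks stand for genes not well above background on either islet array. The orange marks lie above the blue for most genes, while Sparcl1, Efemp1, Tgm2 and Smoc1 are reversed.

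For these genes the cluster arrays lay closer together than the islet arrays. The median difference between the 2 cluster arrays was 0.12 log2 units for these genes and 0.14 for all genes, and between the 2 islet arrays it was 0.31 for these genes and 0.23 for all genes. Only Tnc and Fbn2 differed by more than 1 log2 unit between cluster arrays. Between the islet arrays 6 genes (12.8%) did so, namely Fbln1, Wisp2, Thbs4, Comp, Emilin2 and Ltbp2. Over all genes 4.40% differed that much between cluster arrays and 4.85% between islet arrays. Leaving out islet replicate 1 or 2 moved 5 fold changes by over 1.5 times, giving 5.11 or 6.32 for Emilin2, 5.80 or 4.16 for Fbln1, 7.29 or 8.64 for Thbs4, 2.53 or 1.25 for Comp and 5.54 or 4.18 for Wisp2 on the log2 scale. Between 59.7% and 63.6% of non-control spots were well above background on each array, and Pearson's r across genes, which are not independent replicates, was 0.985 between cluster arrays, 0.989 between islet arrays and 0.796 to 0.810 between groups.

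Markers of other cell types differed between the groups as well. All 11 fibroblast and stromal markers were higher in clusters and above background in both groups, with a summed level (signal over the array's 75th percentile) of 1540 to 1696 in clusters and 53.5 to 62.4 in islets. The 10 acinar markers were all lower in clusters, summing to 1.62 to 1.66 there and to 4275 to 6768 in islets, and Cpa1, Amy2a5, Pnlip and Ptf1a were not well above background in clusters. Of 10 endocrine markers 9 were lower in clusters (2.08 to 2.32 against 29.2 to 167), with Gcg, Ppy, Iapp, Pdx1 and Slc2a2 not well above background there. All 8 endothelial markers were lower in clusters (3.34 to 3.77 against 21.5 to 23.6), with Cdh5, Tek, Robo4 and Tie1 not well above background there. Of 8 smooth muscle, pericyte and stellate markers 2 were higher and 4 lower (6.69 to 7.38 against 17.4 to 31.3), and Myh11 was not well above background in clusters. Between the islet arrays, replicate 1 had the higher endocrine sum (167 against 29.2) and the lower acinar sum (4275 against 6768). On both islet arrays the acinar sum exceeded the endocrine sum, as did the duct sum (216 on replicate 1 and 177 on replicate 2). Such sums add signals of different probes and are not cell shares. The part of these cell types in the results below was not tested.

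Several readings below are given by probe, so the sequences of 6 probes are shown as the deposited files hold them, in lower case. Why probes of the same gene differed was not tested. Each keeps at least 1 reading frame open from end to end. Each of the sequences is 60 bases long and positions are on mm9. Capitals mark a stop codon that closes the frame open over the rest of the oligo. Both P4ha3 probes are higher in clusters, the Plod1 probes differ, and the Mfap2 and Tnc probes did not pass.
P4ha3 A_55_P2003033, chr7:107463120-107463179, plus strand: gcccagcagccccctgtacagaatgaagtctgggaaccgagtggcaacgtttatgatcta
P4ha3 A_55_P2003034, chr7:107467431-107467490, plus strand: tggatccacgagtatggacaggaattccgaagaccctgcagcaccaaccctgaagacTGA
Plod1 A_51_P320304, chr4:147290037-147291457, minus strand, spliced across 1421 bases of genome: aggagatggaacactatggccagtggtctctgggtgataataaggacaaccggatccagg
Plod1 A_55_P2169784, chr4:147302568-147302627, minus strand: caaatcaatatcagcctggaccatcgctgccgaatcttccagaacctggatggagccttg
Mfap2 A_55_P2181597, chr4:140570920-140570979, plus strand: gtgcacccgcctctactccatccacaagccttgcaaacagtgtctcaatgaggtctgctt
Tnc A_55_P2421597, chr4:63643728-63643787, minus strand: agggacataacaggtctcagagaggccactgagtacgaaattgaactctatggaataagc

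Elastin, fibrillins and microfibril proteins were 6 higher and 0 lower of 8 (median log2 fold change 3.06), and elastin itself did not pass. Fbn1, the main fibrillin of microfibrils after birth, had log2 levels of 3.68 and 3.65 in clusters and -1.79 and -1.63 in islets. Both cluster arrays lay far above both islet arrays, with a log2 fold change of 5.38 ± 0.14 (SE, adjusted p = 9.74e-05). Mfap2, which encodes the microfibril glycoprotein MAGP-1, read 2.24 and 2.12 in clusters and -2.94 and -2.92 in islets (5.11 ± 0.13, adjusted p = 9.92e-05) on its brighter probe. The Mfap2 probe printed above read only -1.62 and -1.86 against -2.47 and -1.98, a difference of 0.49 that did not pass (adjusted p = 0.135 in the fit over probes), although both probes were well above background on all 4 arrays.

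The EMILINs, elastin-associated glycoproteins at the fibre surface, were both higher in clusters. Emilin1 read 1.81 and 1.80 in clusters against -2.72 and -2.57 in islets, a log2 fold change of 4.45. Emilin2 read 5.50 and 5.44 against -0.85 and 0.36 (5.72 ± 0.43), so the cluster arrays agreed closely while the islet arrays were 1.21 apart. Mfap5, the gene of the microfibril glycoprotein MAGP-2, differed less, with 1.16 and 1.08 against -1.02 and -0.10 (1.67 ± 0.34, adjusted p = 0.0154). Without cluster replicate 1 its adjusted p was 0.0526. Mfap4, a fibrinogen-domain protein that binds elastin and fibrillin, was 1.98-fold higher (adjusted p = 0.00727).

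Eln, which encodes tropoelastin, read -2.78 and -2.94 in clusters and -2.67 and -2.00 in islets. Its log2 fold change of -0.52 ± 0.27 did not pass (adjusted p = 0.159), and without islet replicate 1 it was -0.86 with an adjusted p of 0.0139. Both cluster arrays were thus slightly dimmer than either islet array. Fbn2, a fibrillin best known from development, read -0.82 and -1.90 in clusters and -1.95 and -1.51 in islets, with overlapping groups (0.37 ± 0.42, adjusted p = 0.479), and its difference was -0.17 without cluster replicate 1.

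Among the fibulins, which bridge elastin, fibrillin and basement membrane, 4 of 5 were higher and 1 lower (median log2 fold change 2.80). Fbln2 read 6.68 and 6.51 in clusters against 0.75 and 0.74 in islets, a 57.7-fold difference (5.85 ± 0.14, adjusted p = 9.01e-05). The fibulins best known for elastic fibre assembly had smaller fold changes. Efemp2, or fibulin-4, which helps to bring lysyl oxidase to tropoelastin, read 5.98 and 5.83 against 3.01 and 3.20 (2.80 ± 0.15). Fbln5, which organises elastin on microfibrils, read 2.63 and 2.51 against 0.18 and 0.17 (2.40 ± 0.13).

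Efemp1, or fibulin-3, went the other way. It read -1.62 and -1.75 in clusters and 0.16 and 0.11 in islets, so that both islet arrays were above both cluster arrays by a log2 fold change of -1.82 ± 0.14 (adjusted p = 0.000922). Fbln1, a fibulin of basement membranes and elastic fibres, read 2.95 and 2.83 in clusters but -1.27 and -2.91 in islets (4.98 ± 0.58, adjusted p = 0.00309). Of its 3 probes, 2 name the same RefSeq transcript and gave 4.98 and 4.83. The probe that gave 4.83 was not well above background on islet replicate 2. The probe annotated to the Ensembl transcript ENSMUST00000109432, gave 1.76, and all 3 passed.

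The 4 latent TGF-beta binding proteins were all higher in clusters, by unequal amounts (median log2 fold change 3.65). Ltbp2, which binds fibulin-5 and, unlike its relatives, no latent TGF-beta, read 6.77 and 6.63 against 0.62 and 1.66 (5.56 ± 0.38). Ltbp1, a carrier of latent TGF-beta, read 2.95 and 2.93 against -2.13 and -2.64 (5.33 ± 0.21, adjusted p = 0.000201). Its other probe, on the cDNA AK053964, gave 2.53. The other two carriers differed by about the same amount as each other. Ltbp3 read 5.77 and 5.74 against 3.75 and 3.83 (1.96 ± 0.13), and Ltbp4 read 3.24 and 3.11 against 1.29 and 1.11 (1.97 ± 0.15). The cDNA probe AK147753 of Ltbp4 gave 0.21 and did not pass.

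All 5 lysyl oxidases were higher in clusters, and transglutaminase 2 was lower. Lox, the founding member of the family, read 2.27 and 2.18 against -2.92 and -2.05 (4.71 ± 0.32, adjusted p = 0.000746), and its dimmer probe gave 2.87. Loxl1, the family member most tied to elastin upkeep, read 5.31 and 5.15 against -0.76 and -0.22 (5.72 ± 0.23), with 5.61 on its other probe. Loxl3 read 0.48 and 0.33 against -4.42 and -4.16 (4.69 ± 0.16), and its difference was 2.48 with normexp background correction. In each of these the lowest cluster array was above the highest islet array by more than 4 log2 units.

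Loxl2 and Loxl4, which belong to the scavenger receptor domain subfamily together with Loxl3, differed less. Loxl2 read 4.41 and 4.26 against 1.59 and 1.69 (2.69 ± 0.14). A further Loxl2 probe was left out because its spot was non-uniform on cluster replicate 1, where it read 0.67, against 3.46 on cluster replicate 2 and 1.75 on both islet arrays. Loxl4 read -1.29 and -1.48 against -3.60 and -3.95 (2.39 ± 0.19, or 0.99 with normexp), but its other probe gave 0.22 and did not pass. Tgm2, the transglutaminase that links glutamine to lysine side chains, read 3.53 and 3.48 in clusters and 5.29 and 5.15 in islets (-1.71 ± 0.14, adjusted p = 0.00111). Its other probe gave -1.61, so both Tgm2 probes were brighter in islets.

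Of the collagen-modifying enzymes and their enhancers 6 were higher, 1 did not pass and 1 had no value (median log2 fold change 0.93). Pcolce, a secreted enhancer of procollagen C-proteinase, was the most different, with 7.92 and 7.80 in clusters against 1.23 and 0.92 in islets (6.78 ± 0.17, 109.9-fold, adjusted p = 9.30e-05). Its paralogue Pcolce2 read -2.78 and -2.91 against -2.86 and -2.56, with overlapping groups (-0.13 ± 0.17, adjusted p = 0.529).

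Among lysyl hydroxylases, Plod2, which acts on the telopeptides and so sets the kind of collagen crosslink, read 4.02 and 3.91 in clusters and -0.70 on both islet arrays (4.67 ± 0.13, adjusted p = 0.000111). Plod1, which acts on the helix, had probes that did not match. Its spliced probe read 0.54 and 0.40 against -0.25 and -0.46 (0.82 ± 0.16, adjusted p = 0.0125), and the adjusted p was 0.0787 without cluster replicate 1 and 0.0515 without cluster replicate 2. The other printed probe gave -0.29 and did not pass. Another Plod1 probe, annotated to ENSMUST00000149129 and placed at chr4:147290316-147290375, inside the genomic stretch spanned by the spliced probe, was not well above background in clusters (-6.82 and -7.06) and read -0.71 and 0.83 in islets. It was called lower in clusters (adjusted p = 0.00126), by at least 28.8-fold. The mean of the 3 probes as fitted gave -2.16 for the gene, and -1.44 with this probe at its bound. The direction of Plod1 thus depends on the probe. The single probe of Plod3 was non-uniform on cluster replicate 1, where it read 2.52, against 4.18 on cluster replicate 2 and 3.61 and 3.55 in islets. With that spot kept the difference was -0.23 ± 0.58 (adjusted p = 0.753).

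The prolyl 4-hydroxylase alpha subunits, which stabilise the collagen helix, were all higher, each by less than Plod2. P4ha1 read 2.98 and 2.90 against -0.09 and 0.17 (2.90 ± 0.16), with 3.08 on its other probe. P4ha3 read -1.13 and -1.47 against -2.27 and -2.19 (0.93 ± 0.18, adjusted p = 0.0129), and the printed probe that ends in a stop codon, not well above background in islets, was at least 3.63-fold higher. Without cluster replicate 1 the P4ha3 difference was 0.75 and its adjusted p 0.0677. P4ha2 read 4.88 and 4.66 against 4.08 and 4.24 (0.61 ± 0.16, adjusted p = 0.0309). Its adjusted p was 0.169 without cluster replicate 1, 0.0793 without cluster replicate 2 and 0.0652 without islet replicate 1.

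**Figure D2:**
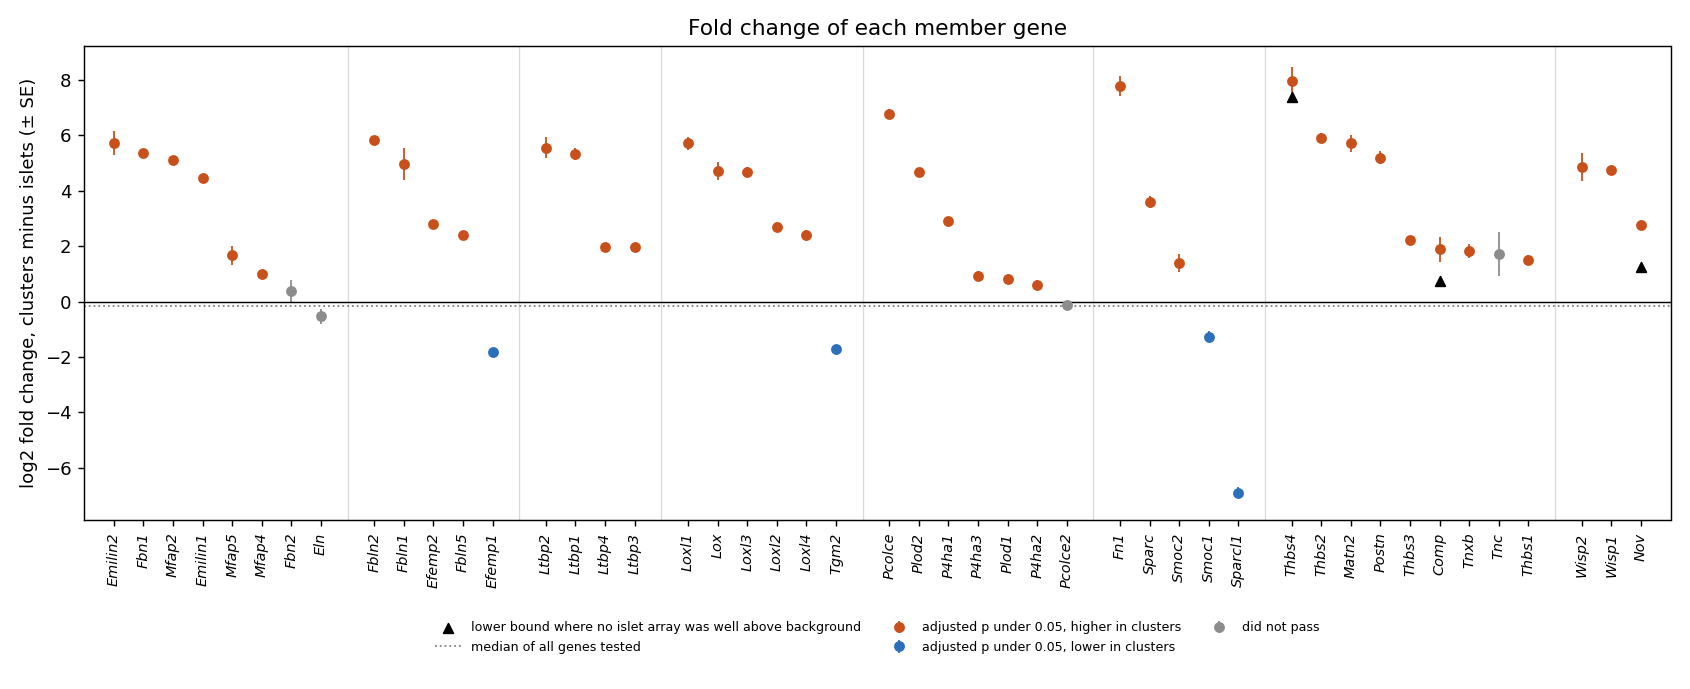
Log2 fold change of each of the 47 genes, clusters minus islets, with the SE of the limma fit, in the same order of roles. Orange points passed as higher (39 genes), blue as lower (4) and grey did not pass (4). Triangles are lower bounds for Thbs4, Comp and Nov, and the dotted line is the median of all genes at -0.15.

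Fn1, the gene of fibronectin, on which cells assemble other matrix, read 9.13 and 9.01 in clusters against 1.77 and 0.81 in islets. That was a 219.8-fold difference (7.78 ± 0.35, adjusted p = 0.000264), the largest among those of the 48 genes that every array detected well above background. Sparc, a collagen-binding matricellular protein, read 9.14 and 8.74 against 5.17 and 5.52 (3.59 ± 0.22), with 4.06 on its other probe.

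The SPARC relatives Sparcl1 and Smoc1 were lower in clusters. Sparcl1, also named hevin, read -2.58 and -2.87 in clusters and 4.36 and 4.00 in islets, a 119.7-fold lower level (-6.90 ± 0.20, adjusted p = 0.000118). Smoc1, a basement membrane glycoprotein, had the smaller difference, with 1.20 and 1.16 against 2.64 and 2.23 (-1.26 ± 0.19, adjusted p = 0.00678). Its paralogue Smoc2 read 2.29 and 2.26 against 0.44 and 1.31 (1.40 ± 0.32, adjusted p = 0.0225). Without cluster replicate 1 the adjusted p of Smoc2 was 0.0708, and without cluster replicate 2 it was 0.0668.

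Of periostin, the tenascins, thrombospondins, COMP and matrilin-2, 8 of 9 were higher and 0 lower (median log2 fold change 2.22). Postn, the gene of periostin, which promotes collagen crosslinking, read 4.42 and 4.34 against -0.51 and -1.13 (5.20 ± 0.25, adjusted p = 0.000299). Matn2, an adaptor of filamentous networks, read 4.59 and 4.49 against -0.78 and -1.59 (5.72 ± 0.31). In both genes the cluster arrays lay closer together than the islet arrays did.

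The thrombospondins differed widely in fold change. Thbs2 read 2.36 and 2.31 against -3.43 and -3.74 (5.92 ± 0.17, adjusted p = 0.000109). Thbs1, its closest relative and a known activator of latent TGF-beta, was bright in both groups, with 6.23 and 6.22 against 4.92 and 4.52 (1.50 ± 0.19, adjusted p = 0.00386). Thbs3 read 2.41 and 2.31 against 0.23 and 0.06 (2.22 ± 0.14), and its probes gave 2.22 and 2.38.

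Thbs4 and Comp, pentameric thrombospondins known from tendon and cartilage, were not well above background in islets. Thbs4 read 2.59 and 2.47 in clusters and was at least 168-fold higher there on the processed signal (adjusted p = 0.000525). That bound is 7.39 on the log2 scale, and with normexp background correction the difference was smaller, at 4.71. Comp was just above background in clusters, at -4.02 and -4.26, and at least 1.66-fold higher (adjusted p = 0.0261). With normexp background correction the Comp difference was 0.08 (adjusted p = 0.672), and it did not pass without cluster replicate 1 (0.0801) or cluster replicate 2 (0.0589).

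Tnc, the gene of tenascin-C, was the most variable. It read -3.27 on cluster replicate 1 and -0.96 on cluster replicate 2, against -3.83 and -3.84 in islets, so the groups did not overlap while the cluster arrays were 2.31 apart. The difference of 1.72 ± 0.80 did not pass (adjusted p = 0.132). Without cluster replicate 1 the difference was 2.87 and without cluster replicate 2 it was 0.56, so its size depended on which cluster array was used. The other Tnc probe, at chr4:63674248-63675011 on the minus strand, read -4.33 and -4.11 in clusters, 0.22 apart, and was not well above background in islets, which read -5.05 and -6.39. Tnxb, or tenascin-X, which binds collagen fibrils, read 0.29 and -0.07 against -1.45 and -1.97 (1.82 ± 0.25, adjusted p = 0.00492).

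The 3 CCN genes of the set were higher in clusters. Wisp1 (now Ccn4) read 3.69 and 3.53 against -1.08 and -1.19 (4.75 ± 0.14, adjusted p = 0.00012), with 4.14 on its other probe. Wisp2 (now Ccn5), a CCN protein without the C-terminal domain, read -0.13 and -0.36 against -4.42 and -5.78 (4.86 ± 0.49), and was well above background on 1 of the 2 islet arrays. Nov (now Ccn3) read -3.60 and -3.65, was not well above background in islets and was at least 2.37-fold higher (adjusted p = 0.00036). Its difference was 0.19 with normexp background correction (adjusted p = 0.304).

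**Figure D3:**
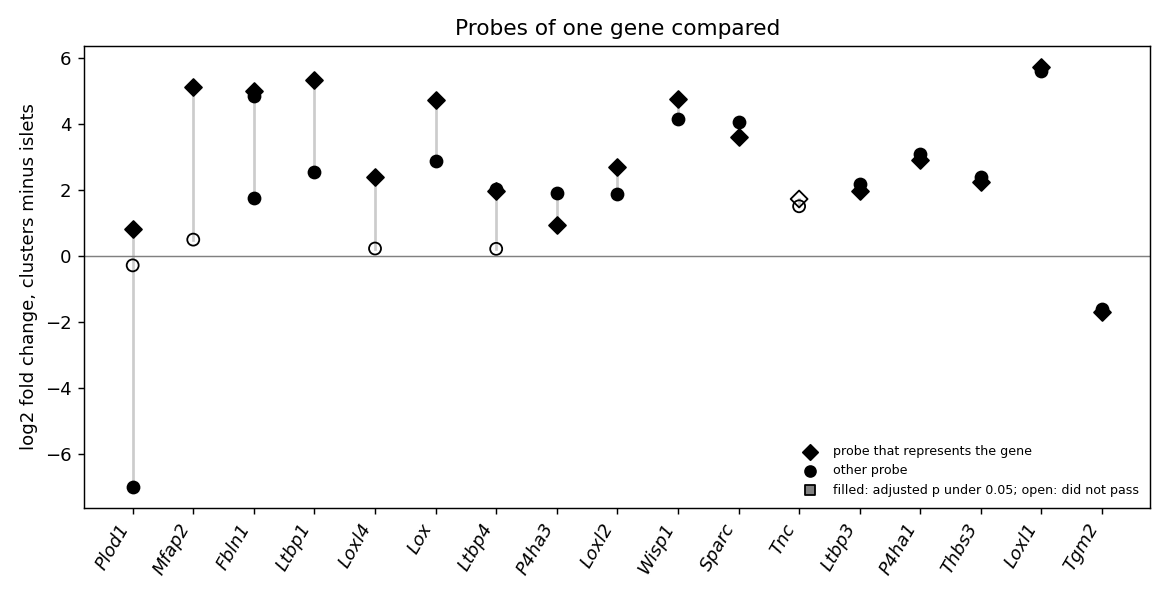
Fitted log2 fold change, clusters minus islets, of each probe for the 17 genes with several probes kept, ordered by the spread between probes. Diamonds are the probes that represent a gene, and filled marks passed. The lowest Plod1 value, the higher P4ha3 value and the lower Tnc value are fitted against a group not well above background. Plod1 has probes called in opposite directions, and Mfap2, Fbln1, Ltbp1, Loxl4, Lox and Ltbp4 have probes more than 1 log2 unit apart.

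Of the 17 genes with several kept probes, 12 had all their probes called in the same direction and 10 had probes within 1 log2 unit of each other. Plod1 was called in opposite directions by its probes. The second probes of Fbln5 and Fbn2 were not well above background in either group.

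Genes outside the set that act on the same structures were counted from 3 lists. Of elastic fibre and TGF-beta genes 16 of 18 were tested, with 9 higher and 3 lower (median log2 fold change 1.42, or 1.30 with genes not well above background in a group at their bounds). The ligands Tgfb1 (1.31 ± 0.17), Tgfb2 (3.78 ± 0.54) and Tgfb3 (1.62 ± 0.18) were all higher in clusters. Hmcn1, a hemicentin with fibulin-like domains, was at least 6.31-fold higher, and Mmp12, the macrophage elastase, was higher with a log2 fold change of 4.07. Mmrn2, an endothelial EMILIN relative, was lower (-6.70 ± 0.17), as was Adamtsl5 (-1.52). Fbln7 was lower by at least 3.36-fold on a probe not well above background in clusters, and its other probe was lower too (adjusted p = 0.00999).

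Collagen maturation genes were mostly higher, with 15 higher and 1 lower of 19 tested (median 2.05, or 1.46 with bounds). Bmp1, the procollagen C-proteinase that also processes pro-lysyl oxidase and that Pcolce enhances, was higher by 3.26 ± 0.15 on the log2 scale. The procollagen N-proteinases Adamts14 (5.55) and Adamts2 (4.49) were higher as well. The Bmp1 relative Tll1 was at least 87.9-fold higher on a probe not well above background in islets, while its other probe, well above background on all arrays, gave 0.02 (adjusted p = 0.939). Glt25d2 (now Colgalt2), a collagen galactosyltransferase not well above background in clusters, was at least 1.64-fold lower there.

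Other matricellular genes split evenly, with 6 higher and 6 lower of 13 tested out of 20 (median -0.15). Ctgf (now Ccn2), a CCN gene outside the set, read lower in clusters by -6.34 ± 0.33 (adjusted p = 0.000378). Cyr61 (now Ccn1) did so by -5.72 ± 0.13 (adjusted p = 8.8e-05), the opposite direction to Wisp1, Wisp2 and Nov. Tgm1, an epithelial transglutaminase, was at least 16.3-fold lower, the same direction as Tgm2. Tgfbi (6.42), the follistatin-like gene Fstl1 (4.91) and F13a1, the coagulation transglutaminase (at least 7.03-fold), were higher.

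**Figure D4:**
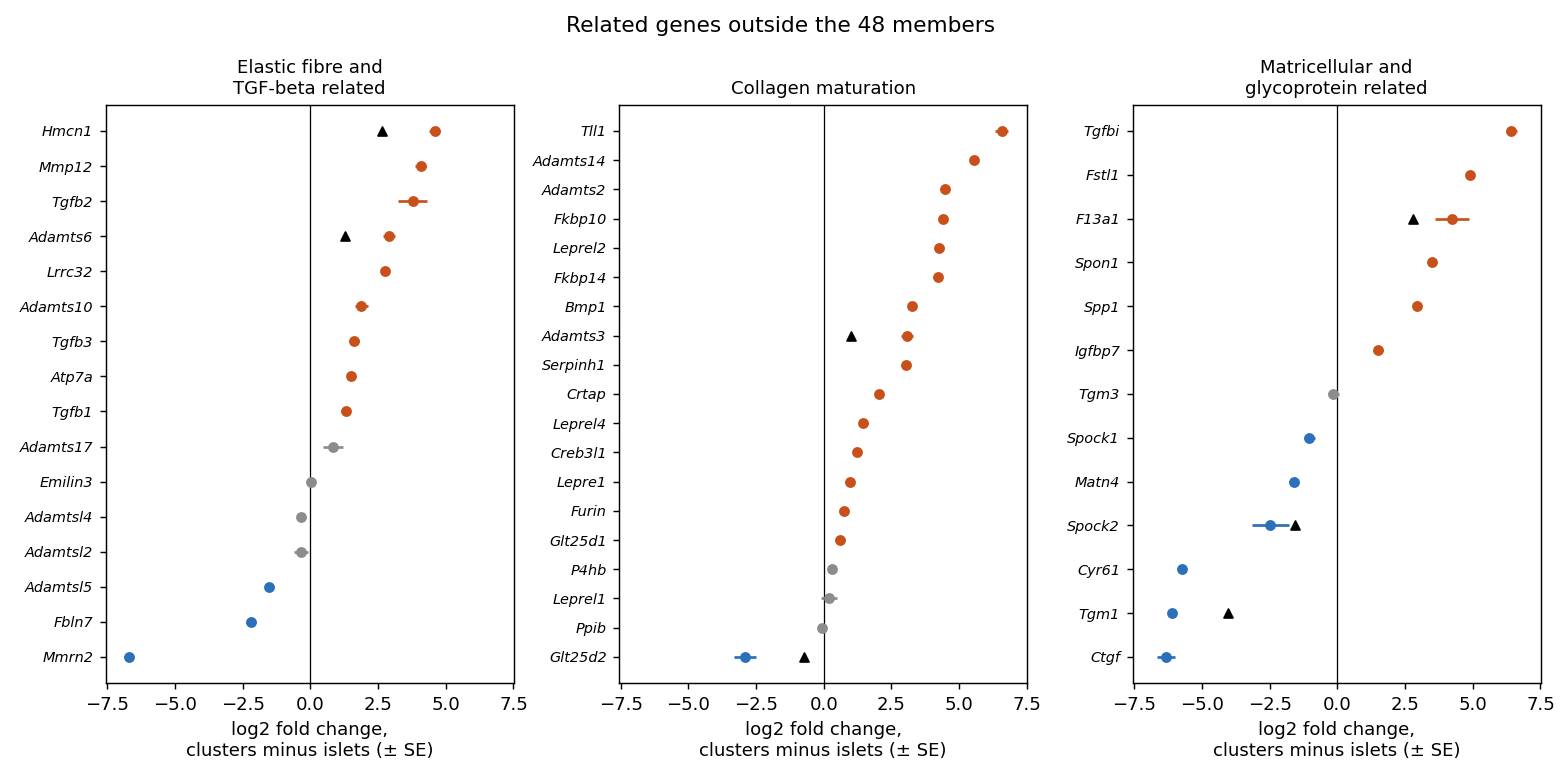
Log2 fold change with SE, clusters minus islets, of the 48 tested genes outside the set in 3 lists. Orange passed as higher, blue as lower, grey did not pass, and triangles are bounds for genes not well above background in a group. Collagen maturation genes lie mostly to the right, while matricellular genes fall on both sides, with Ctgf, Tgm1 and Cyr61 furthest to the left.

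RefSeq promoter sequences (GRCm38.p6) were at hand for 28 of the 48 genes, and the 250 bases before each start were searched on both strands. A gene counted as having a motif when any of its starts did, and the 28 genes had 39 promoter entries. The number of starts per gene was not matched between these genes and all genes. The TATA box TATAAA was found for 4 of 28 (Postn, Plod1, Thbs2 and Tnc), 14.3%, as for 14.3% of all genes. The motif CAGAC, bound by SMAD proteins downstream of TGF-beta, was found for 17 (60.7%, against 45.8% of all genes). The motif ACGTG, the core bound by hypoxia-inducible factors, was found for 7 (25.0%, against 18.5%), P4ha1 and P4ha2 among them. Postn is shown because its TATAAA, in capitals, begins 26 bases before the start, with the 60 bases upstream of the start.
Postn promoter, chr3:54361047-54361106 (GRCm38.p6), plus strand: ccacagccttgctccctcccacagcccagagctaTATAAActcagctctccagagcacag
These matches describe letters in a window and are not binding sites.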

How the data were processed

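Per the labels' protocols, cDNA was made with an oligo-dT primer from 500 ng of total RNA, turned into Cy3-labelled cRNA and hybridised. Per the file headers, the deposited spot intensity was made with Agilent Feature Extraction 11.5.1.1 (background-subtracted, detrended processed signal, linear scale), and probe positions are mm9. All 4 arrays share 1 slide and 1 scan. The authors' value table holds log2 values that correlated with the scanner values at r of 0.99995 or higher, with no centring per gene (column medians -3.66 and -3.74 for clusters, -3.55 and -3.41 for islets), and served as an alternative.

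The values analysed were log2 processed signal minus each array's 75th percentile over the probes with a value on all 4 arrays. Control spots and non-uniform spots were left out (510 of the latter on cluster replicate 1, at most 26 on the others), and spots of a probe were averaged. Probes well above background on both arrays of a group were kept (34971 of 55681), and a gene was represented by its kept probe with the highest mean. Clusters were set against islets by a 2-sided moderated test in limma 3.58.1 (R 4.3.3), with no covariate, Benjamini-Hochberg adjustment over all 24595 genes and a threshold of 0.05. With 2 residual degrees of freedom, the number of arrays limits precision. Where no probe of a gene was well above background in a group, the fold is a bound, taken as the bright group's mean over the mean, across the dim arrays, of the higher of the probe's own signal and the lowest signal among well-detected probes. Such bounds hold for the processed signal only. With normexp background correction the differences of Thbs4, Comp and Nov fell below their bounds. The fit was also run on simulated data whose spread was drawn from the cluster arrays alone. That run cannot show how the fit performs at the spread of the islet arrays.

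The 48 genes, their grouping and the related and marker lists were chosen with earlier results of these data known. All 48 genes are named, and of the related lists up to 3 called genes per direction with the largest fold change, plus Tgfb1, Tgfb2, Tgfb3, Bmp1, Ctgf and Cyr61. Markers named are those not well above background. Duct, macrophage, mesothelial and Schwann cell markers were also measured: 7 of 8, 4 of 8, 2 of 3 and 3 of 6 tested were lower in clusters, and 0, 1, 1 and 1 higher.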

Additional observations from a re-analysis of the deposited data

How the results depend on the processing

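The comparison was refitted under 18 alternatives in background correction, scaling, filters, flagged spots, probes per gene, variance model, value source, pairing and arrays left out. Of the 47 genes, 36 kept their direction and their side of the threshold in each alternative that gave them a value. Genes called ranged from 10016 to 15049, and 34 to 40 members were called higher and 4 or 5 lower, all within 1.5 times the counts reported. Leaving out an array gave 38 to 43 members called, the lone array of a group being assumed to vary like the other group. Signs turned for Plod1 (-2.16, the mean of its probes), Fbn2 (-0.17 without cluster replicate 1) and Pcolce2 (0.08 with median scaling, 0.04 with quantile normalization and 0.02 without islet replicate 2), where the mean over probes of opposite sign shows the reason for Plod1. For the others the cause was not tested. With arrays left out in turn Fbn2 ranged from -0.17 to 0.91 and Pcolce2 from -0.29 to 0.02. Median scaling moved the median of all genes by 0.22 and a percentile over well-detected probes by -0.14, and P4ha2 did not pass with the latter (0.47, adjusted p = 0.0542) or without a filter on dim probes (adjusted p = 0.0702). Taking the percentile over whichever probes an array itself kept, a setting chosen after seeing the data, gave 13492 genes and 44 members called, Tnc included (adjusted p = 0.0246). Whether the replicate numbers pair the arrays is not known. The deviations of same-numbered arrays had an r of -0.0235 across genes, which cannot settle it with 2 arrays per group. With the number as a block 12080 genes and 42 members were called, P4ha2 not (adjusted p = 0.0765). Low signal over background limits the fold changes of dim genes such as Comp, Nov, Loxl3, Loxl4, Wisp2 and Thbs4.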
